A study of Mus musculus with 12 samples.

Results

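Integrins and E-cadherin are the surface proteins by which lymphocytes hold on to vessels, matrix and other cells, and 10 of their genes are described here in type 1 invariant natural killer T (iNKT1) cells, which depend on the transcription factor T-bet. The genes are the integrin alpha chain genes Itgad, Itgae, Itga4, Itga5 and Itgal, the beta chain genes Itgb1, Itgb2, Itgb3 and Itgb7, and Cdh1, which encodes E-cadherin. They were found by the Ensembl identifiers of these symbols, and all 10 were among the 14004 genes of the deposited RNA-seq table. The 12 libraries fell into 4 groups of 3: cKO liver, control liver, cKO thymus and control thymus. All mice carried Tbx21Cre, a Cre recombinase driven by the T-bet gene promoter, and a Rosa26-YFP reporter, and the cKO mice carried floxed Ets1 alleles (Ets1F/F) as well, so that the transcription factor Ets1 was to be deleted in cells that had expressed Tbx21. Cells were sorted as positive for CD1d tetramer and for YFP, and the age of the mice is not given in the labels. The labels do not say whether the 3 libraries of a group came from separate mice, so p-values measure only the spread between libraries, possibly a technical one.

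An integrin is a pair of 1 alpha and 1 beta chain, and the pair decides the ligand. Beta 2 pairs with alpha L to form LFA-1, which binds ICAM-1 and is needed for iNKT cells to stay in the liver, and with alpha D to form a receptor for VCAM-1 best known from macrophages. Beta 1 and beta 7 share alpha 4, whose pairs bind VCAM-1 and the gut vessel ligand MAdCAM-1, while alpha 5 with beta 1 binds fibronectin, alpha E with beta 7 (CD103) binds E-cadherin, and beta 3 with alpha V binds vitronectin. A chain reaches the surface only with its partner, so a transcript level does not give the amount of a pair.

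Recovered depth was 18.5 M to 43.4 M reads (M, 1e6) in 10 libraries, 3.21 M in cKO liver library 2 and 3.87 M in control liver library 3. Genes with 0 reads numbered 1415 to 2176 per cKO thymus library, against 3528, 2824 and 1782 for control thymus libraries 1, 2 and 3. Ets1 itself ranged between 3594 and 5787 in cKO liver, against 15910.2 to 18773 in control liver (log2 fold change -1.97, limma adjusted p = 0.0012), and between 5788 and 11817 in cKO thymus, against 19493 to 28051 in control thymus (-1.58, 0.0095). These values sum all exons, floxed or not. The 9 measured markers of iNKT1 and T cells, such as the CD3 chain genes, summed to between 120627 and 166732 in every library. Values are the authors' library-size adjusted values, in which 1 read was worth between 0.615 and 6.66, and group values are means ± SD over 3 libraries. Log2 fold changes (± SE) were fitted with limma on log2(value + 1), so they average logarithms and are not the ratio of the means.

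The first question was how loss of Ets1 bore on these adhesion genes. Over both tissues 4 of the 10 genes rose in cKO cells, namely Itgad, Itgb1, Itgb7 and Itgb3, and 0 fell (limma, Benjamini-Hochberg adjusted p under 0.05). Of the 13058 tested genes 2.27% were called, 1.18% higher and 1.1% lower. In liver 2 of 10 rose, Itgad and Itgb1, where 0.505% of all tested genes were called, 0.314% higher and 0.191% lower. In thymus 2 of 10 rose, Itgad and Itgb3, where 0.636% were called, 0.314% higher and 0.322% lower. The cKO and control libraries of a tissue did not overlap for 5 of the 10 genes in liver, 4 of them higher in cKO cells, and for 6 in thymus, 5 of them higher, beside 18.6% and 14.5% of all tested genes. The gene lower in cKO liver was Itga5, which passed the filter on low values only through the group in which it was high, control liver, and so had to differ. Itgad, counted as higher in both tissues, likewise passed the filter only through the cKO groups, so its entry favoured its direction. The genes had been picked with such results in view, so these shares are a description. The median log2 fold change of the 10 genes was 0.49 over both tissues, 0.50 in liver and 0.63 in thymus, beside 0.14, 0.02 and 0.24 for all tested genes. The thymus median of all tested genes moved to -0.03 after scaling with edgeR's TMM factors, and no gene called here changed direction under it.

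**Figure D1:**
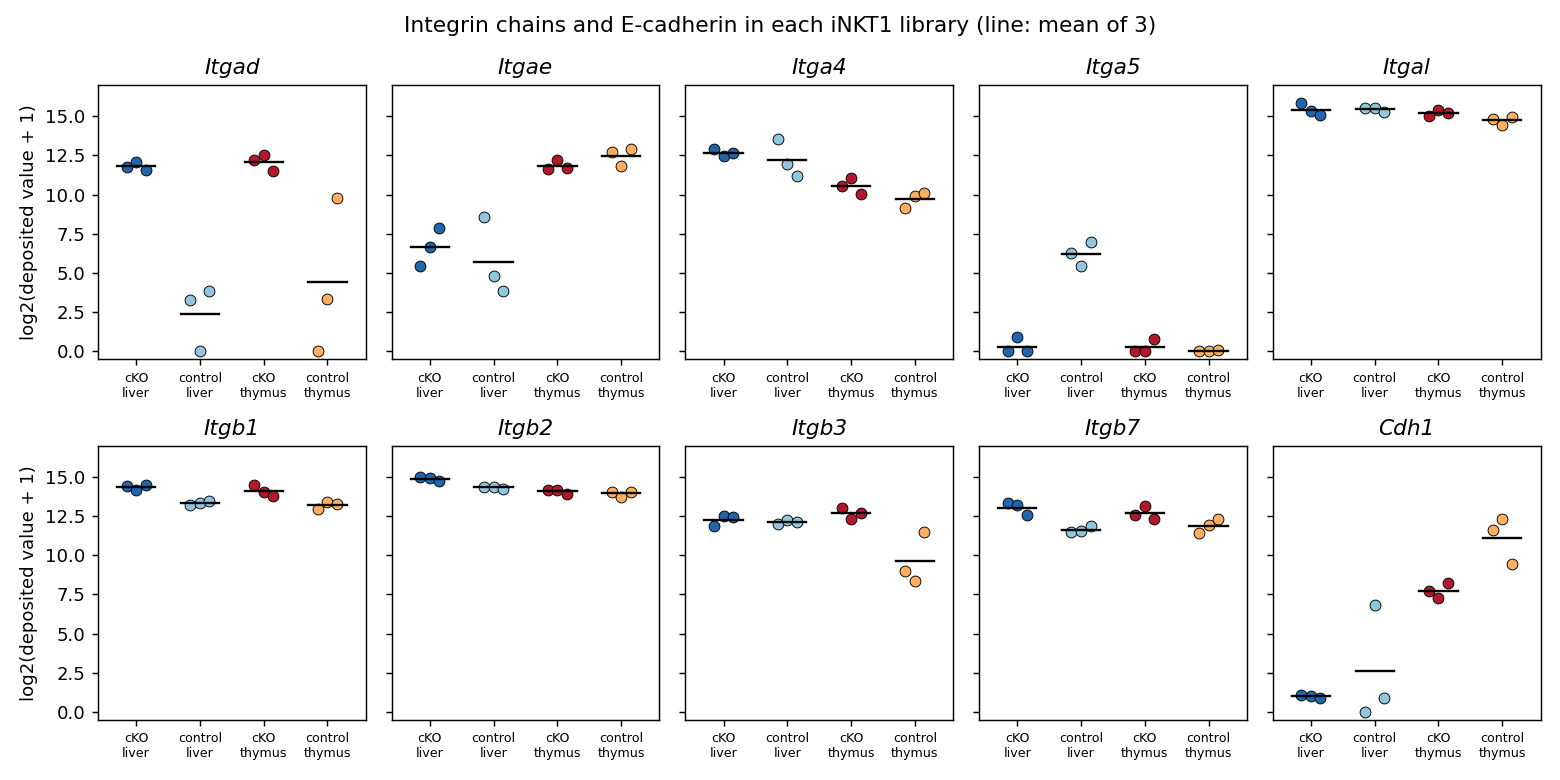
Each panel shows 1 gene, with log2(deposited value + 1) on the vertical axis and the 3 libraries of each group as points over the group's mean (line). Itgad was high in all 6 cKO libraries and between 0 and 889 in the 6 control libraries, while Itgae was high in thymus and low in liver in both genotypes.

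Itgad, the alpha D chain gene (ENSMUSG00000070369, chr7:128154376-128223816, plus strand, GRCm38), had deposited values of 3400.2, 4295 and 3066 in the cKO liver libraries, against 8.68, 0 and 13.05 in the control liver libraries. The control liver values stood for 10, 0 and 2 reads, and the cKO liver values for 5530, 645 and 3561. In thymus it had 4784, 5805 and 2947 in cKO cells, against 0.0213, 9.28 and 889 in control cells. Every cKO library lay above every control library of its tissue, and control thymus library 3 held 709 of the 717 control thymus reads. The log2 fold change was 8.56 ± 1.21 over both tissues (limma adjusted p = 0.00063), 9.43 ± 1.72 in liver (0.012) and 7.69 ± 1.72 in thymus (0.045). Among the control libraries only control thymus library 3 and control liver library 3 reached the filter value of 10. Itgad was thus tested through the cKO groups, in which it was high, and its entry favoured the direction of these tests.

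The thymus call of Itgad was lost on leaving out any 1 of 10 of the 12 libraries (adjusted p between 0.058 and 0.19), and held without control thymus library 3 or control liver library 2. Without control thymus libraries 1 and 2 its log2 fold change there was 2.29 (limma adjusted p = 0.63, within 0.00087 to 0.63 over 22 alternatives), and on all 12 libraries edgeR's quasi-likelihood test and DESeq2 gave 3.90 each (adjusted p = 0.28 and 0.24). It was also lost with no filter on low values (0.051), without the 2 libraries of lowest depth (0.11) and in the fit to the 2 groups alone (0.18). The liver call was lost without cKO liver library 1 (0.081), 2 (0.095) or 3 (0.065) or control liver library 2 (0.071), or without the 2 libraries of lowest depth (0.17), at log2 fold changes between 8.25 and 10.02. The call over both tissues held under all 21 alternatives, with limma, edgeR or DESeq2 adjusted p between 4.6e-06 and 0.0069 and log2 fold changes between 5.86 and 9.91. Of the 4510 exon bases of Itgad, 890 (19.7%) lie over 4 other genes, among them Cox6a2 on the other strand. The sources used here do not give whether counting used strand. Cox6a2, a gene of muscle cytochrome oxidase, reached at most 96.5 in cKO liver, 0.819 in control liver, 62.6 in cKO thymus and 1.19 in control thymus, and was not called.

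Itgad lies in a row with the genes of other beta 2 partners. Itgax, which encodes the alpha X chain (CD11c), starts 24.8 kb before Itgad on the same strand. Among 14 other tested genes within 250 kb, only Itgax was called higher in cKO cells over both tissues, beside 1.18% of all tested genes. It had 2129.95, 940.1 and 919.6 in cKO liver, against 299, 0.833 and 6.99 in control liver, and 6035, 2189 and 2494 in cKO thymus, against 0.0213, 5.81 and 444 in control thymus. As with Itgad, the cKO libraries lay above the control libraries in both tissues. The log2 fold change of Itgax was 7.004 ± 1.32 over both tissues (limma adjusted p = 0.007), 6.23 in liver (0.2) and 7.78 in thymus (0.064). The call over both tissues was lost with edgeR (adjusted p = 0.095), DESeq2 (0.053) and without the 2 libraries of lowest depth (limma, 0.051). Itgam, the alpha M (CD11b) gene further upstream, had 402 to 654 in cKO liver, against 0.832 to 109 in control liver, and 0 to 193 in cKO thymus, against 0.0444 to 35.9 in control thymus (limma adjusted p = 0.54 over both tissues). The transcripts of Itgad and Itgax share 78 bases in stretches of at least 50, and misassigned reads were not measured.

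**Figure D2:**
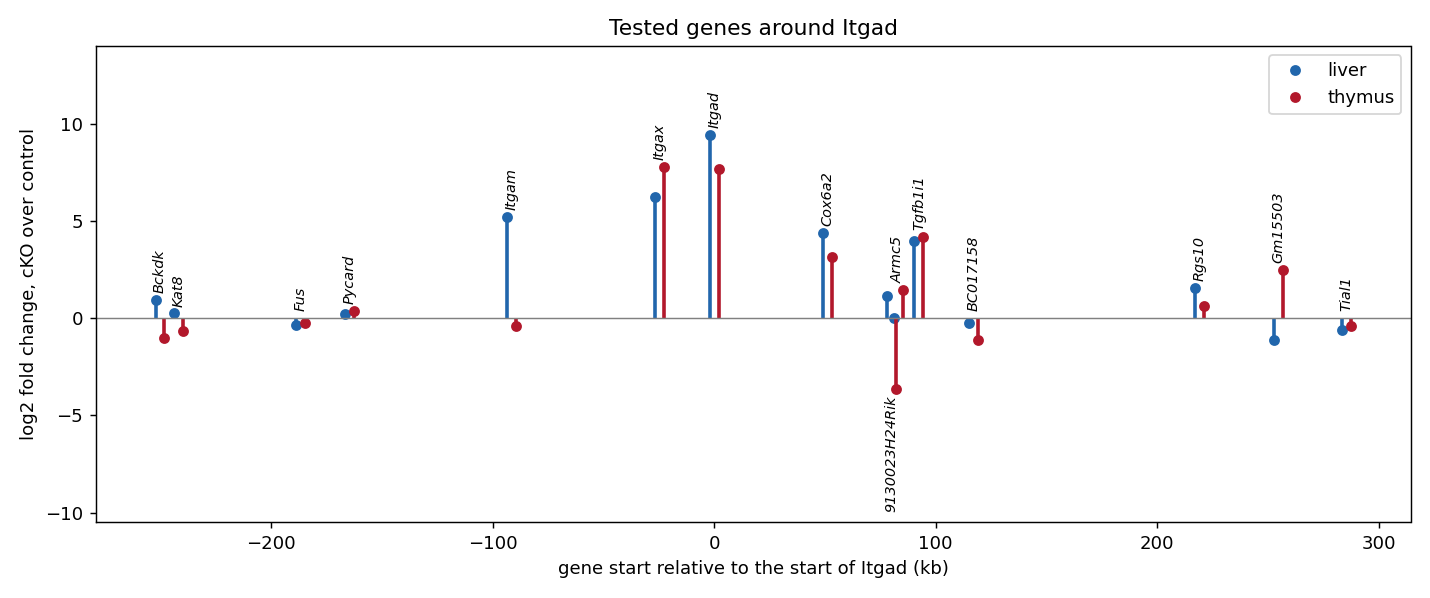
Log2 fold changes (cKO over control) of the tested genes around Itgad in liver (blue) and thymus (red), set by the distance of each gene's start from the start of Itgad in kb. The tallest pairs are Itgad, at 9.43 in liver and 7.69 in thymus, and Itgax, at 6.23 and 7.78. Itgax passed the test only over both tissues, and both genes had entered it through the cKO groups.

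Alpha D and alpha X are also chains of macrophages and dendritic cells. Markers of these cells, 9 of 15 in the table with Itgax and Itgam among them, added up to between 2522 and 3593 in cKO liver, against 571 to 2137 in control liver, and to between 2523 and 6567 in cKO thymus, against 171 to 722 in control thymus. Without Itgax the other 8 summed to 1463 to 1770.0 in cKO liver, against 569.7 to 1837 in control liver, and to 334 to 532 in cKO thymus, against 166 to 315 in control thymus. Of the 8 tested, 0 were called in either tissue, beside 0.505% of all tested genes in liver and 0.636% in thymus. Adgre1, the F4/80 gene, had 0 reads in both thymus groups and in control liver, and reached 27.6 in cKO liver. The lysozyme gene Lyz2 had 1 read over the cKO thymus libraries and 3 over the control thymus libraries, while the class II gene H2-Ab1 had 3 and 1. The other genes of the list had more reads in cKO than in control thymus. Xcr1 had 609 and 275, Cd68 527 and 315, Itgam 188 and 41, Csf1r 163 and 10, and H2-Aa 52 and 1. The part of such cells in the Itgad and Itgax values was not tested. In the liver libraries Lyz2 lay between 47.3 and 300.2 in cKO cells, against 8.55 to 404 in control cells. H2-Aa lay between 61.3 and 399 in cKO liver, against 6.84 to 122 in control liver. Itgam had 402 to 654 there, against 0.832 to 109, and Xcr1 had 493 to 552, against 219 to 506. Csf1r had 0.544 to 28.4, against 0 to 37.5. H2-Ab1 went the other way, with 0 to 24.1 in cKO liver, against 30.9 to 66.1 in control liver. Cd68 reached at most 438 in cKO liver and 1171 in control liver. In a bulk sample, fewer cells of a type and less RNA per cell cannot be told apart.

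The common partner of alpha D, alpha X and alpha L is beta 2 (Itgb2, ENSMUSG00000000290, chr10:77530252-77565708, plus strand). Itgb2 had 32716, 31480.2 and 27659 in cKO liver, against 21233, 21252 and 19448 in control liver, and 18807, 18560.3 and 15292 in cKO thymus, against 17178, 13524 and 17179 in control thymus. The liver groups did not overlap and the thymus groups did, and neither difference passed the test, with a log2 fold change of 0.57 ± 0.18 in liver (limma adjusted p = 0.28), 0.14 ± 0.18 in thymus (0.79) and 0.35 ± 0.13 over both tissues (0.21). Itgal, the alpha L chain gene (ENSMUSG00000030830, chr7:127296260-127335138, plus strand), averaged 45131 ± 12401 in cKO liver and 44611 ± 4211 in control liver, and 37870 ± 4538 in cKO thymus and 27480 ± 4849 in control thymus. Its log2 fold change was -0.01 in liver, with a 95% interval of -0.43 to 0.40 (limma adjusted p = 1), and 0.47 in thymus, with an interval of 0.06 to 0.89 (0.3). Per kb of exon these LFA-1 chains were the most abundant of the 10 transcripts in every group, and neither was called between genotypes in either tissue.

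Itgb1 (ENSMUSG00000025809, chr8:128685654-128733200, plus strand), the beta 1 chain that pairs with alpha 4, alpha 5 and many others, rose in cKO cells. It had 21956, 18195 and 22714 in cKO liver, against 9354, 10150.3 and 11465 in control liver, and 22556, 17062 and 14107 in cKO thymus, against 8002, 10924 and 9789.6 in control thymus. The groups did not overlap in either tissue. The log2 fold change was 0.95 ± 0.16 over both tissues (limma adjusted p = 0.0027), 1.02 ± 0.23 in liver (0.047) and 0.89 ± 0.23 in thymus (0.081). The call over both tissues held under all 21 alternatives (adjusted p between 2.7e-05 and 0.016). The liver call was lost without any 1 of the 6 liver libraries (limma adjusted p between 0.11 and 0.24), without cKO thymus library 2 (0.063) or 3 (0.053), and without the 2 libraries of lowest depth (0.27), with the log2 fold change between 0.95 and 1.196. It was also lost with TMM scaling (0.075), the replicate block (0.061) or edgeR (0.083).

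Itgb7 (ENSMUSG00000001281, chr15:102215995-102231944, minus strand), the beta 7 chain that pairs with alpha 4 and alpha E, had 10248, 9553 and 6126 in cKO liver, against 2845, 2957 and 3828 in control liver. In thymus it had 6056, 9087 and 5153 in cKO cells, against 2763, 3947 and 5133 in control cells. The liver groups were well apart, and the lowest cKO thymus library lay just above the highest control library. The log2 fold change was 1.09 ± 0.23 over both tissues (limma adjusted p = 0.015), while 1.41 ± 0.33 in liver (0.058) and 0.78 ± 0.33 in thymus (0.31) did not pass. The call over both tissues was lost without cKO liver library 1 (log2 fold change 1.02, adjusted p = 0.055) or 2 (1.05, 0.054), without control thymus libraries 1 and 2 (0.88, 0.094) and without the 2 libraries of lowest depth (1.11, 0.087), within 0.00051 to 0.094 over 21 alternatives. In liver DESeq2 called Itgb7 (adjusted p = 0.0038).

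The promoters of Itgb1 and Itgb7, whose transcripts rose together over both tissues, and that of their shared partner Itga4 are shown because Ets1 and T-bet are the DNA-binding factors of this design. Each is the 250 bases before the RefSeq gene start (GRCm38.p6), 5′ to 3′ on the gene's strand, from a table that held 4 of the 10 genes. Capitals mark the T-box letters GGTGTGA, which were searched for on both strands together with the ETS letters CGGAAGT and AGGAAGT. The regions are chr8:128685404-128685653 (plus strand) for Itgb1, chr15:102231936-102232185 (minus strand) for Itgb7 and chr2:79255176-79255425 (plus strand) for Itga4.
Itgb1: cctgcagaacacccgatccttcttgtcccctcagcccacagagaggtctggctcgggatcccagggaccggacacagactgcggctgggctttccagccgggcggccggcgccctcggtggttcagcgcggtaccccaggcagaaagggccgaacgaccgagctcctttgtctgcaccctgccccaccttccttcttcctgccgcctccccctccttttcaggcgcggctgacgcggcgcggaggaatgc
Itgb7: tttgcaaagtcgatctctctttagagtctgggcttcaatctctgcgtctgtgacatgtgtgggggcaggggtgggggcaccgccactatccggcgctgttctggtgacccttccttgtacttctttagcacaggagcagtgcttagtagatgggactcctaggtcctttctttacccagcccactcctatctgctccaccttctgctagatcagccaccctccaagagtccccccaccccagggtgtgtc
Itga4: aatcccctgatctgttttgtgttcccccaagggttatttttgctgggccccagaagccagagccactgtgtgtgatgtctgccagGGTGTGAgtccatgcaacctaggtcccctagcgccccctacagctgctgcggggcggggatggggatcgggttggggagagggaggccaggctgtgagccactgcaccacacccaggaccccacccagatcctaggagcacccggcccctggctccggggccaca
The Itga4 window held GGTGTGA once, with its first base 165 bases before the start, and the Itgb1, Itgb7 and Itga5 windows held none of the 3 sets of letters. Of 32851 promoter windows of this length, 4.92% held CGGAAGT, 7.69% AGGAAGT and 3.33% GGTGTGA. A match or its absence describes these letters in this window only.

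Itgb3 (ENSMUSG00000020689, chr11:104608000-104670476, plus strand), the beta 3 chain of the vitronectin receptor, had 3690, 5763 and 5505 in cKO liver, against 4014, 4842 and 4494 in control liver. In thymus it had 8251, 5206 and 6796 in cKO cells, against 517, 324 and 2849 in control cells. The liver groups overlapped, and in thymus every cKO library lay above every control library, of which library 3 was the highest. By limma the log2 fold change was 0.14 ± 0.55 in liver (adjusted p = 1), 3.08 ± 0.55 in thymus (0.012) and 1.61 ± 0.39 over both tissues (0.032). The thymus call was lost without cKO thymus library 1 (log2 fold change 2.93, adjusted p = 0.076) or 3 (3.07, 0.069) and on dropping control thymus libraries 1 and 2 (1.22, 0.47), within 0.00011 to 0.47 over 22 alternatives. It was also lost with edgeR (2.44, adjusted p = 0.094) and in the fit to the 2 groups alone (0.14). The call over both tissues was lost without any 1 of the liver libraries, cKO thymus library 1 or 3 or control thymus library 1 (limma adjusted p between 0.052 and 0.09), without the 2 libraries of lowest depth (0.17), with edgeR (0.12) and without control thymus libraries 1 and 2 (log2 fold change 0.68, 0.21).

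The difference between the genotype effects of the tissues was tested directly. Of the 10 genes, 0 were called (0.00766% of all tested genes were, 1 in number), and 2 had an unadjusted p under 0.05, as had 702 of all tested genes. These were Itgb3, with a liver minus thymus difference of -2.94 ± 0.78 (limma adjusted p = 0.75), and Itga5, with -6.13 ± 1.92 (0.87), whose entry through control liver fixes this sign. Neither edgeR nor DESeq2 on recovered reads called any of the 10, with 3 and 112 genes called in all. Itgb3 was called without control thymus library 3 (-3.88, limma adjusted p = 0.0046). Beta 3 also pairs with alpha IIb on platelets. Platelet markers, 3 of 7 in the table, together reached at most 64.9 in cKO liver, 70.1 in control liver, 101 in cKO thymus and 2.39 in control thymus, and Pf4 and Ppbp had 0 reads in both thymus groups. The third, the alpha IIb gene Itga2b, had 98 reads over the cKO thymus libraries and 2 over the control thymus libraries. In liver Itga2b had 33 reads in cKO and 8 in control cells. The part of platelets in the Itgb3 values was not tested.

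**Figure D3:**
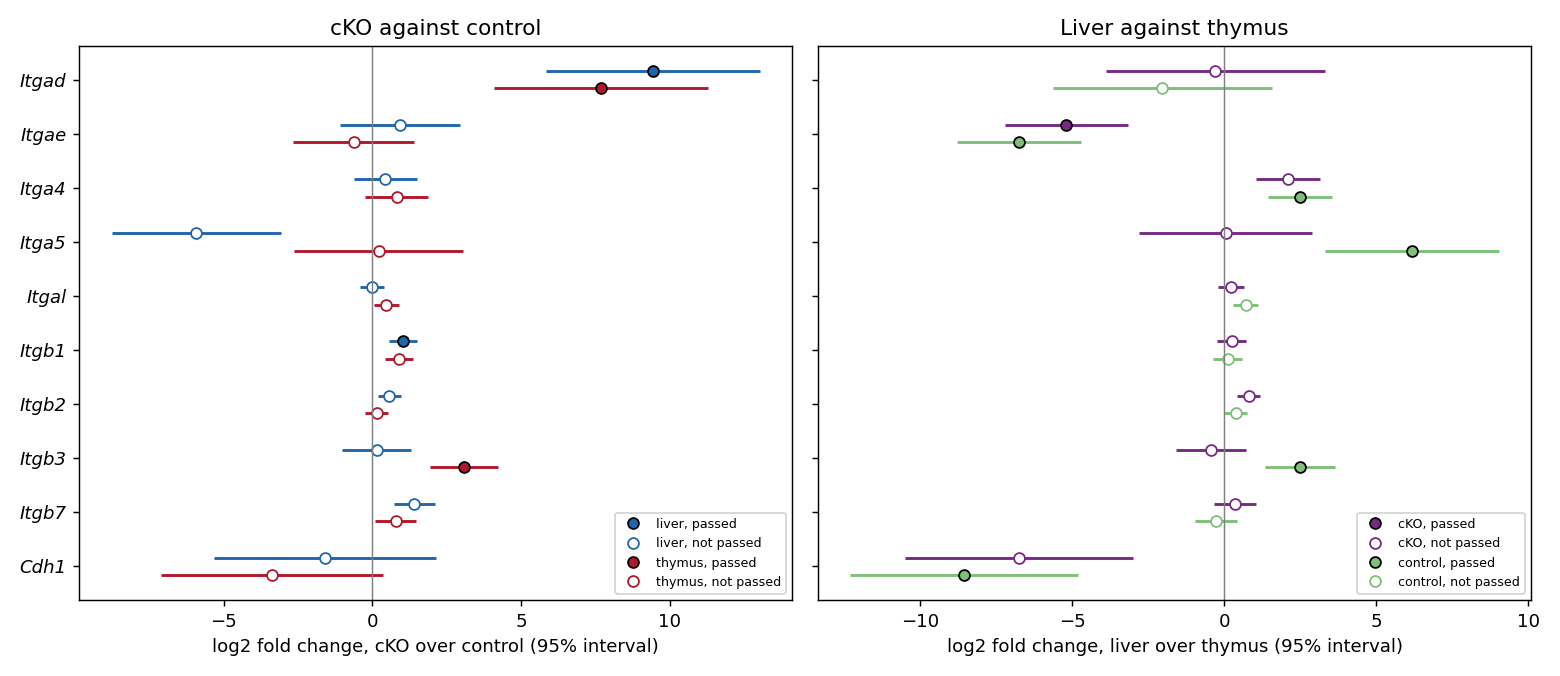
Log2 fold changes of the 10 genes with 95% intervals (bars), cKO over control on the left and liver over thymus on the right; filled points passed the limma test. On the left Itgad passed in both tissues, Itgb1 in liver and Itgb3 in thymus, and on the right Itgae passed in both genotypes.

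Among the alpha chain genes whose products pair with beta 1 or beta 7, Itga4, Itgae and Itga5 were not called between genotypes. Itga1, the gene of a further partner of beta 1, was called lower in cKO cells over both tissues and is described below (log2 fold change -1.58, limma adjusted p = 0.0024). Itga4, the alpha 4 chain gene (ENSMUSG00000027009, chr2:79255426-79333123, plus strand), had 7579, 5604 and 6465 in cKO liver, against 11954, 4032 and 2303 in control liver, and 1491, 2159 and 1053 in cKO thymus, against 566, 981 and 1104 in control thymus. The groups overlapped in both tissues (log2 fold change 0.44 ± 0.50 in liver, limma adjusted p = 1, and 0.82 ± 0.50 in thymus, 0.5). Of its exon bases, 8.04% lie over Cerkl on the other strand. Itgae, the alpha E chain gene (ENSMUSG00000005947, chr11:73090583-73147446, plus strand), had 42.3, 101 and 232 in cKO liver, against 382, 26.6 and 13.1 in control liver, and 3122, 4741 and 3327 in cKO thymus, against 6590.5, 3586 and 7786 in control thymus. Here too the groups overlapped (0.93 ± 0.97 in liver, limma adjusted p = 1, and -0.63 ± 0.97 in thymus, 0.82).

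Itga5, the alpha 5 chain gene of the fibronectin receptor (ENSMUSG00000000555, chr15:103344286-103366763, minus strand), had 0 reads in the cKO liver libraries, against 86, 49 and 22 reads (values of 74.9, 42.1 and 125) in the control liver libraries. It had 1 read over the cKO thymus libraries and 0 over the control thymus libraries, and the filter on low values was passed through control liver alone. Against a floor of 3 reads per library, Itga5 was at least 9.13-fold lower in cKO liver. The limma difference did not pass (adjusted p = 0.055); it passed with a pseudocount of 5 (0.043), with quantile normalization (0.047) or with no filter on low values (0.038), and nothing is read from these tests. Bounds of this kind cover counting error only, and this one comes from the group through which Itga5 had entered. The neutrophil and endothelial lists, each with 1 gene in the table, had their highest values in control liver. Mmp9, the 1 of 6 neutrophil markers in the table, reached at most 1.16 in cKO liver, against 3033 to 3585 in control liver, and at most 1.43 in cKO thymus and 2.55 in control thymus. The endothelial gene Pecam1, the 1 of 7 of its list, lay between 1.16 and 88.0 in cKO liver, against 458 to 671 in control liver, and between 0.923 and 68.5 in cKO thymus, against 71.7 to 302 in control thymus. The part of any of these cells in the Itga5 values was not tested.

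Cdh1 (ENSMUSG00000000303, chr8:106603351-106670246, plus strand), whose product is the ligand of alpha E beta 7, had 210.4, 153 and 304 in cKO thymus, against 3112, 4998 and 707 in control thymus. In liver it had 2, 0 and 1 reads in cKO cells, against 0, 132 and 0 reads in control cells. The thymus groups did not overlap, with control library 3 the lowest of the controls, and the control liver reads all came from library 2. By limma the log2 fold change was -1.59 ± 1.79 in liver (adjusted p = 1), -3.37 ± 1.79 in thymus (0.43) and -2.48 ± 1.26 over both tissues (0.41), and the last was called by edgeR (-4.46, adjusted p = 0.032) and DESeq2 (-4.57, 0.0082). The epithelial gene Epcam had 2 reads over the cKO thymus libraries and 0 over the control thymus libraries. In liver Epcam had 4 reads in cKO and 163 in control cells. The hepatocyte gene Trf lay between 0 and 61.1 in cKO thymus, against 110 to 598 in control thymus. Alb lay between 0 and 424 in cKO thymus, against 0.0213 to 268 in control thymus. The part of such cells in the Cdh1 values was not tested. Epithelial and hepatocyte markers, 5 of 8 in the table, together lay between 714 and 1473 in cKO liver, against 1331 to 1768 in control liver, and between 6.18 and 430 in cKO thymus, against 110 to 868 in control thymus.

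The second question was how the adhesion genes differed between liver and thymus. In control cells 5 of the 10 genes were called, 3 higher and 2 lower in liver, where 0.605% of all tested genes were called, 0.337% higher and 0.268% lower. Of the 3 higher genes Itga5 had entered through control liver alone. Cdh1, lower in liver, had reached the filter value of 10 in no liver library but control liver library 2. Its entry through the thymus groups favoured this direction. The calls to be read are those of Itgae, Itga4 and Itgb3, which reached 10 in all 12 libraries. In cKO cells 1 of 10 was called, lower in liver, where 0.222% were, 0.107% higher and 0.115% lower. Liver and thymus libraries did not overlap for 7 of the 10 genes in control cells and 4 in cKO cells, beside 15.4% and 16.1% of all tested genes. The median log2 fold change of the 10 was 0.25 in control cells and 0.14 in cKO cells, beside 0.28 and 0.09 for all tested genes.

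Itgae stood out in both genotypes. It fell in liver, at 125 ± 96.9 in cKO liver and 3730 ± 881 in cKO thymus (-5.18 ± 0.97 on the log2 scale, limma adjusted p = 0.029), and at 141 ± 209 in control liver and 5987 ± 2164 in control thymus (-6.75 ± 0.97, 0.0014). In both genotypes all 3 liver libraries lay below all 3 thymus libraries. Markers of immature thymocytes, 7 of 9 in the table, added up to between 5670.2 and 8693 in cKO liver, against 3156 to 4894 in cKO thymus, and to between 10461 and 14959 in control liver, against 2343 to 8511 in control thymus. Within this list Cd4 reached 1657 in cKO liver and 7921 in control liver, and Themis reached 6608 in cKO liver and 5756 in control liver. Cd8a had 826 reads in cKO and 1467 in control liver, against 381 in cKO and 205 in control thymus. Cd8b1 had 60 and 72 reads in liver, against 242 and 38 in thymus. Cd1d1 had 191 and 386 in liver, against 1525 and 391 in thymus. The recombination genes Rag1 and Dntt had 0 reads in both liver groups. Over the thymus libraries Rag1 had 225 reads in cKO and 389 in control cells, and Dntt had 143 reads in cKO and 9 in control cells. The part of these cells in the Itgae difference was not tested. The control call was lost only in the fit to the 2 groups alone (adjusted p = 0.055, within 1.6e-08 to 0.055 over 22 alternatives). The cKO call was lost without any 1 of the cKO libraries (limma adjusted p between 0.079 and 0.16) or control thymus library 3 (0.054), without the 2 libraries of lowest depth (0.057) and with edgeR (0.055). Its ligand gene Cdh1 was also lower in control liver, at 38.0 ± 65.1 in control liver and 2939 ± 2151 in control thymus (-8.54 ± 1.79, limma adjusted p = 0.03), a call lost without control liver library 1 (-7.24, 0.17) or 3 (-7.70, 0.18), control thymus library 1 (-8.29, 0.093) or 2 (-7.95, 0.093) or cKO thymus library 3 (0.054). It was also lost without control thymus libraries 1 and 2 (-6.88, 0.49), without the 2 libraries of lowest depth (-7.70, 0.22), with edgeR (-6.19, 0.087) and in the fit to the 2 groups alone (0.16). Cdh1 had entered the test through the thymus groups, which favoured this direction. In cKO cells Cdh1 had 3 reads in liver and 782 in thymus, a thymus-to-liver ratio of 232 (95% counting interval 79.2 to 1130) that limma did not call (-6.76 ± 1.79, adjusted p = 0.15).

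Itga4 went the other way. It averaged 6096 ± 5146 in control liver and 884 ± 282 in control thymus (log2 fold change 2.50 ± 0.50, limma adjusted p = 0.024), with no overlap of libraries, and 6549 ± 990.2 in cKO liver and 1567 ± 557 in cKO thymus (2.11 ± 0.50, 0.1). The control call was lost without control liver library 1 (1.84, limma adjusted p = 0.17) or 2 (2.63, 0.092) or control thymus library 1 (2.21, 0.071), without control thymus libraries 1 and 2 (2.12, 0.33) and in the fit to the 2 groups alone (0.2). Itgb3 was higher in control liver, at 4450.1 ± 416 in control liver and 1229.9 ± 1406 in control thymus (2.50 ± 0.55, limma adjusted p = 0.045), and averaged 4986 ± 1130.0 in cKO liver and 6751 ± 1523 in cKO thymus (-0.44, 0.95). The Itgb3 call was lost without any 1 library other than control thymus library 3 (limma adjusted p between 0.056 and 0.18), and at a log2 fold change of 0.64 without control thymus libraries 1 and 2 (0.69). It held under 5 of 22 alternatives. Itga5 had 0 reads in control thymus, and against a floor of 3 reads per library was at least 26.1-fold higher in control liver. This bound covers counting error only and comes from the group through which Itga5 had entered. Its limma call (adjusted p = 0.046, held under 4 of 18 alternatives) is given for completeness, since its entry through control liver fixed the direction.

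Of the widely expressed chains, Itgal, Itgb1, Itgb2 and Itgb7 were not called between tissues in either genotype. The largest of these differences was that of Itgb2 in cKO cells, at 30619 ± 2636 in cKO liver and 17553 ± 1962 in cKO thymus (a log2 difference of 0.81 ± 0.18, limma adjusted p = 0.084). In control cells Itgb2 averaged 20644 ± 1036 in liver and 15960.1 ± 2110.0 in thymus (0.38, 0.4). Itgal in control cells, whose libraries did not overlap between tissues, differed by 0.71 (95% interval 0.30 to 1.13, limma adjusted p = 0.13), and in cKO cells by 0.22 (95% interval -0.19 to 0.64, 0.89). Itgb1 differed by 0.25 in cKO cells (95% interval -0.22 to 0.72, limma adjusted p = 0.9) and by 0.12 in control cells (95% interval -0.36 to 0.59, 0.88).

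Levels were compared between genes only after division by exon length, as deposited value per kb of exon. In all 4 groups the 4 highest genes were Itgb2, Itgal, Itgb1 and Itgb7. Itgb2 had 10032 ± 864 per kb in cKO liver and 6764 ± 340 in control liver, and 5751 ± 643 in cKO thymus and 5229 ± 691 in control thymus. Itgal had 6870 ± 1888 per kb in cKO liver and 6791 ± 641 in control liver, and 5765 ± 691 in cKO thymus and 4183 ± 738 in control thymus. The order of these neighbours lay within their spread in control liver, cKO thymus and control thymus. Itgb1, next in order, had 5135 ± 593 per kb in cKO liver and 2530 ± 261 in control liver, and 4388 ± 1051 in cKO thymus and 2346 ± 361 in control thymus.

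Below these 4 the order depended on the group. In cKO cells Itgb3 and Itgad came next, at 845 ± 191 and 795 ± 141 per kb in cKO liver and at 1144 ± 258 and 1000.4 ± 321 in cKO thymus, neighbours that did not differ beyond their spread. In control liver Itgad and Cdh1 were the lowest by mean, at 1.61 ± 1.47 and 8.32 ± 14.2 per kb, within their spread. In control thymus Itgae came next after Itgb7, at 1307 ± 472 per kb against 1425 ± 428, within their spread.

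**Figure D4:**
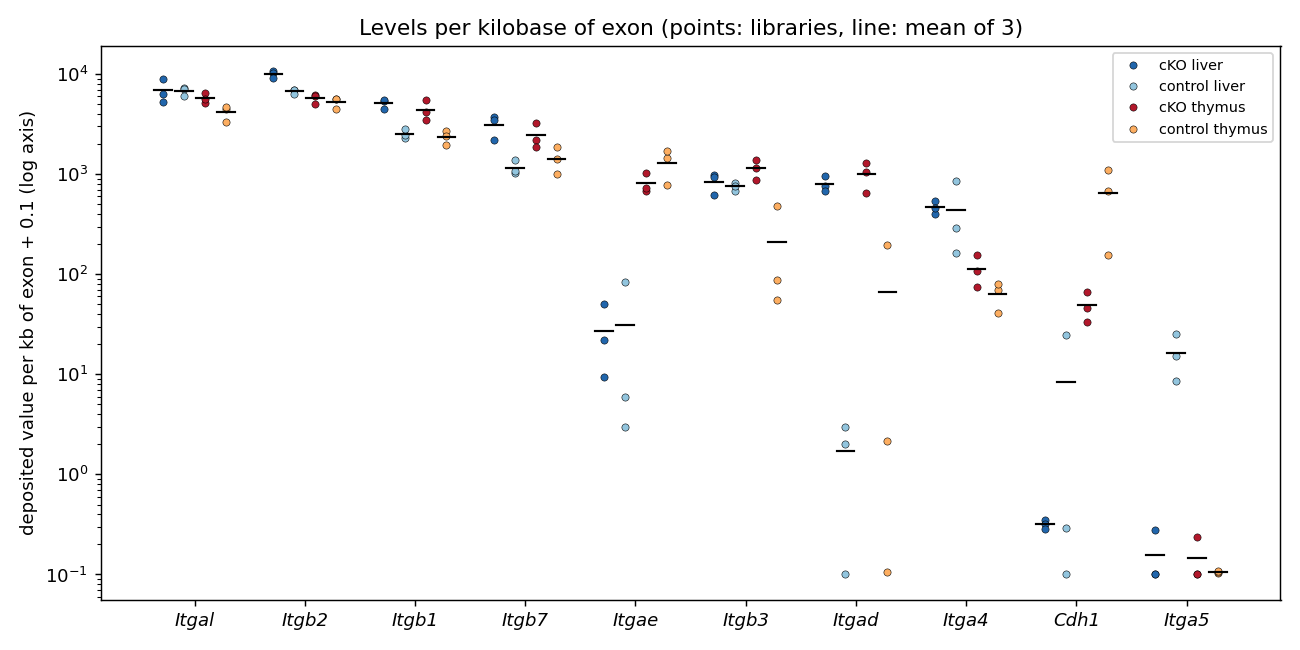
Deposited value per kb of exon plus 0.1 on a log axis, with the libraries of each group as points and their mean as a line. Itgal, Itgb2, Itgb1 and Itgb7 lie at the top in every group, and Itgad, Itgae, Cdh1 and Itga5 spread over several orders of magnitude between groups.

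Of the other integrin chain genes, 13 of 18 listed were in the table and 9 could be tested. Over both tissues 1 rose in cKO cells, Itgax, and 1 fell, Itga1, beside 1.18% higher and 1.1% lower of all tested genes. In liver or thymus alone 0 were called. Itgax had entered through the cKO groups, which favoured its direction. Itga1, the alpha 1 chain (CD49a) of a collagen receptor that marks tissue-resident lymphocytes, had 1852, 1007 and 1019 in cKO liver, against 4178, 3052 and 4136 in control liver, and 4040.4, 1899 and 2968 in cKO thymus, against 8799, 8298 and 7964 in control thymus. The groups did not overlap in either tissue. Its log2 fold change was -1.58 ± 0.26 over both tissues (limma adjusted p = 0.0024, at most 0.037 over 21 alternatives), -1.60 in liver (0.055) and -1.56 in thymus (0.06). Itga2, the alpha 2 chain of another collagen receptor, averaged 1471 ± 572 in cKO liver and 989.5 ± 741 in control liver, and 2237 ± 433 in cKO thymus and 370 ± 568 in control thymus, and was not called (log2 fold change 2.78 over both tissues, limma adjusted p = 0.1). Alpha 1 and alpha 2 are also chains of NK cells, whose 5 markers summed to between 1020.3 and 2980.1 in cKO liver, against 1528 to 3275 in control liver, and to between 1219 and 2712 in cKO thymus, against 3704 to 6246 in control thymus, with 0 called in either tissue. Of all tested genes 0.505% were called in liver and 0.636% in thymus. In thymus Klre1 had 4098 reads in cKO and 8406 in control cells, and Klri2 454 and 2874. Klra8 had 1567 and 608, Eomes 93 and 20, and Ncr1 had 0 reads in both thymus groups. Itgav, the partner of beta 3, averaged 1002 ± 182 in cKO liver and 2262 ± 524 in control liver, and 1798 ± 462 in cKO thymus and 1347 ± 381 in control thymus (limma adjusted p = 0.66 over both tissues).

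Among 26 tested genes of integrin activation and adaptors, 1 rose and 2 fell in cKO cells over both tissues. Of all tested genes 1.18% were called higher and 1.1% lower. The median log2 fold change of the 26 was -0.09, beside 0.14 for all tested genes. Flna, which encodes filamin A, an actin crosslinker that binds beta chain tails, rose, with 17612, 22911 and 16450.3 in cKO liver, against 5382, 4505 and 4495 in control liver. The log2 fold change of Flna was 1.98 ± 0.27 in liver (limma adjusted p = 0.00093), 0.24 ± 0.27 in thymus (0.73) and 1.11 ± 0.19 over both tissues (0.0031), and the difference between tissues was not called (0.38). The liver call of Flna was lost without the 2 libraries of lowest depth (1.79, limma adjusted p = 0.09). Rapgef6, an exchange factor of the integrin activator Rap1, fell, at 7255 ± 786 in cKO liver and 16725 ± 1567 in control liver, and 11706 ± 770 in cKO thymus and 21248 ± 2315 in control thymus (-1.03 ± 0.14 over both tissues, limma adjusted p = 0.00056, at most 0.012 over 21 alternatives).

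Rasgrp2, another Rap1 exchange factor (CalDAG-GEFI), had 300, 0 and 19.1 in cKO thymus, against 4273, 3871 and 582 in control thymus. In liver it had 66.9, 301 and 269 in cKO cells, against 461, 777 and 304 in control cells. The groups did not overlap in either tissue, and control thymus library 3 was the lowest of its group. It fell in thymus (log2 fold change -6.87 ± 1.51, limma adjusted p = 0.043) and over both tissues (-4.15 ± 1.07, 0.047), calls that held under 7 of 22 and 5 of 21 alternatives and were lost without control thymus libraries 1 and 2 (-5.00, 0.57, and -3.22, 0.33). Dock2 and Fyb, which link antigen receptors to the cytoskeleton and to integrins, were not called (limma adjusted p = 0.73 and 0.86 over both tissues).

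Of 10 tested ligands and surface partners, 1 rose in cKO cells over both tissues and 0 fell, beside 1.18% and 1.1% of all tested genes. Jaml, a junctional adhesion molecule of T cells, averaged 2910.5 ± 814 in cKO liver and 947 ± 273 in control liver, and 3648 ± 1012 in cKO thymus and 1511 ± 966 in control thymus (log2 fold change 1.57 ± 0.37 over both tissues, limma adjusted p = 0.029). The Jaml call was lost without cKO thymus library 2 (0.065) or 3 (0.085), cKO liver library 1 (0.097) or 2 (0.078) or control liver library 2 (0.089) or 3 (0.07), and without the 2 libraries of lowest depth (0.15). Of 6 tested cadherin and catenin genes other than Cdh1, 0 were called, among them Ctnnb1 and Ctnna1, whose products tie cadherins to actin. In none of these 4 lists was a gene called between tissues or for the difference of the genotype effects.

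Genes whose levels followed most closely the adhesion genes called between genotypes were ranked by Pearson's r of log2(value + 1) over the 12 libraries. The points share genotype, tissue and depth, so r is a description. For Itgad the nearest were Lgi4 (r = 0.97), Fxyd7 (0.97) and Galnt3 (0.97), and for Itgb3 Fancg (0.96), Etfb (0.96) and Kcnn4 (0.96). For Itgb1 they were the calcium pump gene Atp2b1 (0.91), Lig1 (0.90) and the sphingosine 1-phosphate receptor gene S1pr5 (0.90), and for Itgb7 the laminin gene Lamc1 (0.94), the actin gene Actg1 (0.92) and S100a6 (0.92).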

How the data were processed

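Per the labels' protocols, RNeasy mini kits gave the RNA and the Ovation Ultralow system of Nugen the libraries. The submitters' processing notes list STAR, TopHat2 2.1.0, HTSeq 0.6.1, Trimmomatic 0.33, DESeq2 and mm10, with no role or order. The authors deposited values for 14004 Ensembl genes in 12 libraries, a library-size adjusted signal, by a method not given in the sources used here. Whole reads were recovered by inverting a negative binomial quantile adjustment inferred from the values (dispersion 1.42), which put 96.9% of values within 0.1 of a whole read; they served for depth, low values, edgeR 4.0.16 and DESeq2 1.42.0.

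Symbols, positions and exon lengths came from GENCODE M21 (GRCm38), which matched 13359 identifiers (95.4%). The planned edgeR test was for whole counts, so limma 3.58.1 (R 4.3.3) was used on log2(value + 1), with 4 group means and a variance trend. Genes at 10 or more in at least 3 libraries were tested (13058; 946 were left out). Two-sided p-values were adjusted (Benjamini-Hochberg) over all tested genes and held to 0.05. The script was tested on simulated data. Alternatives were another pseudocount, no low-value filter, TMM or quantile scaling, the replicate block, left-out libraries, the 2 groups alone, edgeR and DESeq2. All 10 genes were described; from each context list the called genes and up to 2 others of highest mean were named, and for each gene called between genotypes the 3 most alike with a mean of at least 50. Genes and lists were chosen with earlier results of these data known. Protein sequences were not used here.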

Additional observations from a re-analysis of the deposited data

How the results depend on the processing

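The number of the 10 genes called, cKO over control in thymus (2), was 1 with no filter on low values, 1 without the 2 libraries of lowest depth, and 0 with edgeR, in the 2 groups alone or without control thymus libraries 1 and 2. In liver (2) it was 4 with a pseudocount of 5 or quantile normalization, 1 with TMM, edgeR or the replicate block, and 0 without the 2 libraries of lowest depth. Over both tissues (4) it was 2 without those 2 libraries or without control thymus libraries 1 and 2. For liver over thymus in control cells (5) it was 2 with edgeR, without the 2 libraries of lowest depth or without control thymus libraries 1 and 2, and 0 in the 2 groups alone. In cKO cells (1) it was 4 with DESeq2, 3 without control thymus libraries 1 and 2, 2 with quantile normalization or in the 2 groups alone, and 0 with edgeR or without the 2 libraries of lowest depth. Leaving out 1 library at a time gave 0 to 2 calls in thymus, 0 to 3 in liver, 2 to 4 over both tissues, 0 to 1 for the difference between tissues, 1 to 5 for liver over thymus in control cells and 0 to 2 in cKO cells; a group left with fewer libraries is assumed to vary like the others. No called value changed sign. Of 60 pairs of gene and comparison, 37 were not called under any setting, and 13 of these changed sign in at least 1. The cause of these shifts was not tested.

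Replicate numbers did not pair the libraries in thymus, while in liver the link was weak but regular. Deviations of same-numbered cKO and control libraries correlated between -0.096 and 0.041 in thymus and between 0.072 and 0.080 in liver. Every library correlated best with its own number in liver and none did in thymus. Between liver and thymus 2 of 3 did so in control cells and 2 of 3 in cKO cells. With the replicate block Itgb1 in liver (limma adjusted p = 0.061) and Itga5 in control cells (0.069) were not called. Depth limits Itga5, Itgad and Cdh1 where they had few reads, most of all in the libraries of 3.21 M and 3.87 M reads (M, 1e6).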

Other observations

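Control thymus library 3 lay nearest to the cKO thymus libraries for several adhesion genes. It held the highest control thymus values of Itgad (889), Itgax (444), Itga2 (1024) and Itgb3 (2849), and the lowest of Cdh1 (707) and Rasgrp2 (582). Other genes did not share this. For Itgb1 control thymus library 2 (10924) lay nearer to the cKO values than library 3 (9789.6). For Itgae library 3 (7786) lay farthest from them. Ets1 reached at most 11817 in the cKO libraries, below its 19493 in control thymus library 3, which was its lowest control thymus value. The cause was not tested.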
